A study of Mus musculus with 40 samples.

Results

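Regulatory T cells (Treg) of the pancreas were compared with Treg of the other solid organs, as 3 pancreas libraries against 9 libraries of kidney, liver and lung, with 3 libraries per organ. The members were taken by the source named in the labels, 12 of 40 libraries in all, and the reference was the unweighted mean of the 3 other organs. All 12 came from perfused mice that the labels call wild type, carrying a Foxp3-Thy1.1 reporter, and each library was made from 2000 CD4+ reporter-positive cells by 3′ mRNA sequencing. The p-values measure the spread between libraries of a source, estimated over 30 Treg libraries of 10 sources and not over these 12 alone. Neither age, sex nor the number of mice behind a library is given in the labels. How far the spread between libraries is technical or lies between mice is therefore not known. In pancreas and lung it includes libraries that differ in the noncoding RNA Xist, described below. Conventional CD4+ T cells (Tconv), the reporter-negative cells, were sequenced once per organ and are described without a test. Foxp3, the lineage factor of Treg, stood at 149, 149 and 170 CPM (counts scaled by library size) in the pancreas libraries and at 134 to 293 CPM in the other 9, against 1.32 CPM in pancreas Tconv, as the labels have it.

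Treg restrain immune responses, and those that live in organs carry receptors, cytokines and adhesion molecules that circulating Treg lack. Repeated contact with antigen switches on immediate early transcription factors, the TOX family of nuclear proteins and inhibitory receptors such as PD-1, the product of Pdcd1. Thioredoxin-interacting protein, the product of Txnip, limits glucose uptake and is lost when T cells are stimulated. The exocrine pancreas is built of acinar cells, which fill themselves with digestive enzymes and devote most of their messenger RNA to them. Transcripts of these enzymes are given here apart from the genes of T cells.

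The 12 libraries held 17545858 to 27226115 counts and 15794 to 18431 genes with a count. Some libraries stood apart in ways the labels do not name. The noncoding RNA Xist was present in pancreas replicates 1 and 5 (59.5 and 68.6 CPM) and lung replicates 5 and 6 (135 and 217 CPM), and was at most 0.0967 CPM in pancreas replicate 6, lung replicate 1 and all kidney and liver libraries. Xist bears on sex, which the labels do not give. Pancreas and lung thus held libraries with and without Xist, and kidney and liver only libraries without it. In the contrasts with kidney and liver, organ and this imbalance cannot be fully told apart. Pancreas replicate 6 also took 14.4% of its counts from acinar genes. Within the libraries without Xist, where pancreas replicate 6 stands alone for pancreas, 102 genes were higher and 44 lower. In that fit the checkpoint, follicular, feedback, tissue Treg and early response lists described below had fewer higher genes. Xist status was also fitted as a factor over all Treg libraries. The higher counts, in the same order, were then 8, 9, 9, 10 and 12, against 7, 11, 7, 6 and 8 without it. Within the libraries with Xist, pancreas against lung alone, they were 8, 10, 13, 8 and 15. Single libraries that moved a count or a call are named beside it.

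Of 17909 genes tested, 327 were higher in pancreas Treg (1.83% of genes tested) and 109 were lower (0.609%) at a Benjamini-Hochberg adjusted p below 0.05 by the quasi-likelihood test of edgeR. The higher genes fell into 2 kinds. Digestive enzymes and other genes of the acinar cell made up one kind, and 239 genes outside these patterns the other, Tbc1d4, Cd160, Lag3 and Tox2 among them. Of the 239, 179 differed at least 2-fold. Among the lower genes were Txnip, the sphingosine phosphate receptor gene S1pr4, the chemokine receptor gene Ccr10 and the quiescence factor gene Klf2. Without lung replicate 1 the counts became 614 higher and 208 lower, without pancreas replicate 1 they became 157 and 21, and without pancreas replicate 5 they became 183 and 33. The 239 became 524, 85 and 111 in the same 3 fits. The lower count was also 60 without kidney replicate 3, 68 without kidney replicate 5, and 66, 66 and 56 without liver replicates 1, 3 and 4.

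The organs differed in how far pancreas stood from them. Against kidney alone 38 genes were higher (0.212%) and 7 lower (0.0391%), against liver 381 higher (2.13%) and 254 lower (1.42%), and against lung 397 higher (2.22%) and 333 lower (1.86%). The 3 contrasts share the pancreas libraries. Higher against each of the 3 organs were 34 genes (0.19%), of which 26 were on the acinar list and 6 moved with it, leaving Tbc1d4 and Ccl20. Txnip and Ccr10 were lower against each organ (0.0112%), and no other gene was. The 34 became 17 without kidney replicate 3 and 22 without kidney replicate 5. The 2 lower genes became 0 without pancreas replicate 1 or 5, 8 without pancreas replicate 6, 6 without kidney replicate 1 and 1 without kidney replicate 3 or 5.

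Acinar transcripts made up 3.67%, 3.12% and 14.4% of all counts in pancreas Treg replicates 1, 5 and 6, and 1.14% in the pancreas Tconv library. The 36 libraries of the other sources held 0.000371% to 0.0392%, with a median of 0.0031%, so no library from elsewhere came near the lowest pancreas library. Pancreatic lipase, Pnlip, the most abundant, stood at 6784, 6083 and 28016 CPM in the pancreas replicates, at most 31.8 CPM in kidney, 2.75 CPM in liver and 10.1 CPM in lung. The elastase gene Cela1 stood at 2602, 2290 and 14428 CPM in pancreas and between 1.67 and 31.9 CPM in the other 9 libraries (log2 fold change 9.83 ± 0.61 SE, edgeR adjusted p = 2.37e-10). For both genes pancreas replicate 6 was several times above the other pancreas libraries and none overlapped with another organ.

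**Figure D1:**
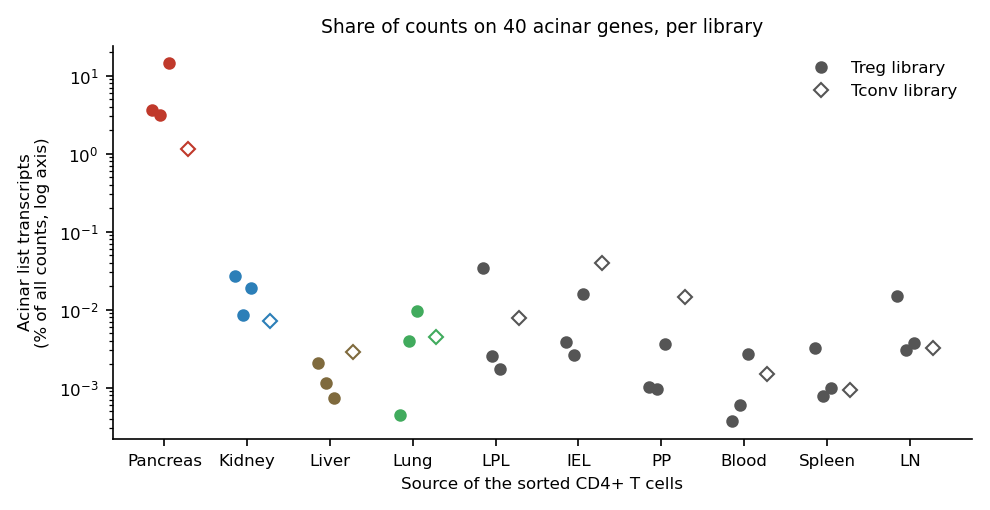
Percent of all counts that fell on 40 acinar genes, on a log axis, in each of the 40 libraries by source, with filled circles for Treg and open diamonds for Tconv (LPL, IEL, PP and LN are label abbreviations of further sources). The 4 pancreas libraries lie between 1.14% and 14.4%, and all others at or below 0.0392%.

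Of 40 acinar genes, 36 passed the filter on low counts and 35 of these were called higher. Since most pass through the pancreas libraries alone, that count is a description. Beside Pnlip and Cela1 they include carboxyl ester lipase Cel, carboxypeptidases Cpa1 and Cpb1, chymotrypsinogen Ctrb1, the trypsinogen Prss2 and the zymogen granule protein Gp2. Mean levels in pancreas Treg ran down from 13627 CPM for Pnlip over 8695 CPM for Cel and 4340 CPM for Ctrb1 to 1.86 CPM for Reg2. Ctrc, at 18.1 CPM, had no count in the 9 other libraries and was at least 904-fold higher, taking 3 counts over those libraries as the floor. Klk1, a kallikrein also made in the kidney, had 156, 104 and 932 CPM in pancreas, and kidney replicate 1, at 269 CPM, lay inside that range. Dnase1 was not called (log2 fold change 0.41, edgeR adjusted p = 0.925), and Prss1, Cela3a, Ptf1a and Gm5771 were too low to test. Trypsinogens and amylases have near-identical copies, so how counts split among Prss2, Try4, Try5, Try10 and the Amy genes is uncertain.

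The acinar factor complex PTF1 is known to bind an E-box beside a TC-box ahead of enzyme genes. To show that arrangement where it was found, stretches from the 250 bases before the gene start are printed from RefSeq (GRCm38.p6), 5′ to 3′ on the gene's strand, with the matched E-box and TC-box letters in capitals.
Cela1: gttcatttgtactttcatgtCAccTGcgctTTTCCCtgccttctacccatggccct
Ctrb1: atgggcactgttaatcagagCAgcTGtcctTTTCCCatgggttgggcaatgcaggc
Cel: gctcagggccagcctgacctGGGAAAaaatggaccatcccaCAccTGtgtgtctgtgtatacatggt
The Cela1 stretch lies at chr15:100687994-100688049 and that of Ctrb1 at chr8:111691180-111691235, both on the minus strand, and both hold CANNTGNNNNTTTCCC. The Cel stretch, chr2:28563443-28563509 on the minus strand, reads the pair on its opposite strand with 15 bases between the boxes. Searched on both strands, the motif with 4 bases between was in 0.0791% of 32851 promoters and in those of 4 of the 32 acinar genes with a promoter in the table (Cela1, Ctrb1, Prss1 and Gm5771). The stretches of Prss1 and Gm5771 around the match have the same letters, and both genes were too low to test. The motif with 15 bases between was in 0.125% of promoters and in 1 of the 32. The percentages count promoters, whereas the acinar figures count gene symbols. A match is a description of letters and not a bound site.

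A further 49 higher genes on no marker list moved with the acinar genes. They were set apart by a rule chosen after the values were seen, a level in pancreas replicate 6 at least 2 times the mean of replicates 1 and 5 with a share of pooled counts in pancreas at least 8 times that in the other 9 libraries. The median of that replicate ratio was 5.75 among the 35 acinar list genes called higher and 0.905 among the 239 remaining genes. Since the same ratio was used to set genes apart from the 239, these medians describe the split and do not test it. Several are known from secretory cells: Pdia2, the pancreatic protein disulfide isomerase, stood at 226, 170 and 723 CPM in pancreas and at most 0.949 CPM elsewhere, and Dmbt1, a secreted scavenger receptor protein, at 503, 544 and 2352 CPM against at most 2.72 CPM. Slc39a5, a zinc transporter, and Tmed6, a cargo receptor of the secretory route, followed at 21.3 CPM and up to 53.2 CPM in pancreas. Bhlha15, the acinar factor MIST1, named after its values were seen, had 6.0, 2.33 and 32.2 CPM. In bulk libraries, fewer cells of a type and less RNA per cell cannot be told apart.

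**Figure D2:**
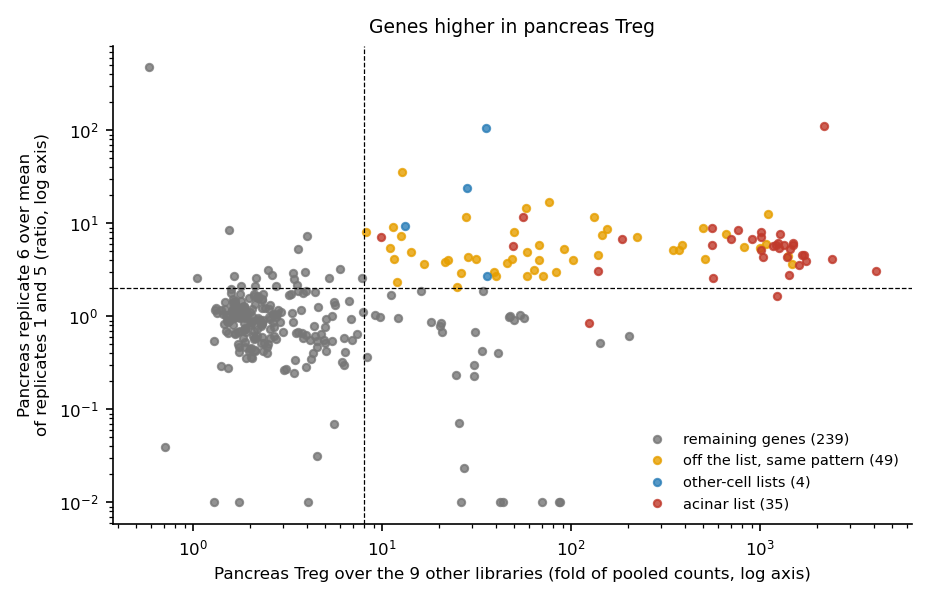
Each point is 1 of 327 genes higher in pancreas Treg, with the fold of pooled counts, each over its summed library totals, in pancreas over the 9 other libraries (floor of 3 counts) on a log x axis and the ratio of pancreas replicate 6 to the mean of replicates 1 and 5 on a log y axis. Dashed lines mark a ratio of 2 and a fold of 8, and 9 points under a ratio of 0.01 are drawn there. Acinar list genes have a median ratio of 5.75 and the remaining genes one of 0.905, a split that the rule drawn by these lines partly fixes.

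Other cells of the pancreas left less. On the islet list, none of 6 genes tested of 17 was called, insulin (Ins2) was at 0.192, 0.901 and 0.626 CPM, and 6 islet genes had no count in pancreas, Slc30a8 and Nkx6-1 among them. Of 12 duct genes 3 were called: Krt8 (1.5, 1.16 and 142 CPM in pancreas), Krt18 (5.04, 6.49 and 54.4 CPM) and Sox9 (0.692, 0.225 and 11 CPM). Each of these was high in pancreas replicate 6 alone and was not called without it. Krt18 was also lost without kidney replicate 3 or 5 or liver replicate 1 or 4, and Sox9 without any 1 library other than liver replicate 3 or lung replicate 1. Of 6 plasma cell genes tested (median -1.57, 2 of 6 positive) 1 was higher, Derl3, part of the machinery that clears misfolded secretory protein, at 8.35, 5.03 and 18.2 CPM against at most 1.38 CPM. It meets the replicate 6 rule given for the genes that moved with the acinar list. The joining chain gene Jchain (-3.50) and the immunoglobulin gene Igha (-4.02) did not pass. No gene of the myeloid, B cell, endothelial, stromal, hepatocyte, lung epithelium, CD8 and gamma delta T cell, NK and innate lymphoid, mast cell or erythroid and platelet lists was called in this contrast. Myeloid transcripts ran from 0.0143% to 0.107% of counts in pancreas, 0.018% to 0.0621% in kidney, 0.0183% to 0.0211% in liver and 0.0117% to 0.195% in lung. Gpx3, of the kidney tubule list, was lower in pancreas and stood at 538, 36.9 and 25 CPM in kidney against 1.31 to 2.78 CPM in pancreas. Its call was lost without kidney replicate 1, lung replicate 5, or any 1 pancreas or liver library.

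Tox2, a nuclear factor of the TOX family, had 366, 282 and 179 CPM in pancreas replicates 1, 5 and 6. Kidney had 67.9, 152 and 156 CPM, liver 32.5, 24.7 and 19.2 CPM, and lung 34.5, 67.3 and 68.6 CPM. Each pancreas library was above all 9 others, kidney came next and liver was lowest. The difference was 2.26 ± 0.31 on the log2 scale (edgeR adjusted p = 4.55e-05), and it passed against liver (3.41) and lung (2.24) but not against kidney (1.14, edgeR adjusted p = 0.453). Among the 27 alternatives to the fit the call was lost only within the libraries without Xist, which hold 1 pancreas and 1 lung library (edgeR adjusted p = 0.0505). The gene lies at chr2:163203125-163324170 of mm10, plus strand.

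Pdcd1 was at 609, 501 and 798 CPM in pancreas, 362, 1025 and 1065 CPM in kidney, 85.1, 120 and 108 CPM in liver, and 466, 196 and 273 CPM in lung. The pancreas libraries were above all of liver and lung, and 2 of the 3 kidney libraries were above all of pancreas. Against the mean of the organs Pdcd1 was 1.07 ± 0.28 higher in log2 (edgeR adjusted p = 0.0371), a call that was lost in 14 of 27 alternatives and whose values ranged from 0.32 to 1.79. By organ it passed against liver (2.58, edgeR adjusted p = 0.000145), and not against lung (0.99, adjusted p = 0.116) or kidney (-0.36, adjusted p = 0.92). Its place is chr1:94038305-94052553, minus strand.

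Txnip was the reverse. Pancreas libraries had 209, 262 and 356 CPM, kidney 849, 916 and 689 CPM, liver 1510, 1480 and 1485 CPM, and lung 791, 1224 and 1016 CPM. The highest pancreas library lay under the lowest of the others by a wide gap. The change was -1.98 ± 0.28 in log2 (edgeR adjusted p = 6.65e-05), with -1.57 against kidney, -2.46 against liver and -1.91 against lung, all 3 past the threshold. Of 27 alternatives, the call was lost only within the libraries without Xist (edgeR adjusted p = 0.12).

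The Txnip promoter is known for carbohydrate response elements, through which glucose raises its transcription. A stretch with 1 match to a motif of that type (RefSeq, GRCm38.p6, chr3:96557852-96557908, plus strand, 5′ to 3′) is shown because Txnip was lower against every organ. The capitals mark the fixed letters of that motif, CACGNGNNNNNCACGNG, in which both CACGNG boxes belong to the same match.
Txnip: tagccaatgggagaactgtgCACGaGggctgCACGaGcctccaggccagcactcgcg
The match begins 85 bases before the gene start, and the motif, searched on both strands, was in 0.0457% of 32851 promoters. No reading of glucose or of a factor's binding was made in these cells.

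**Figure D3:**
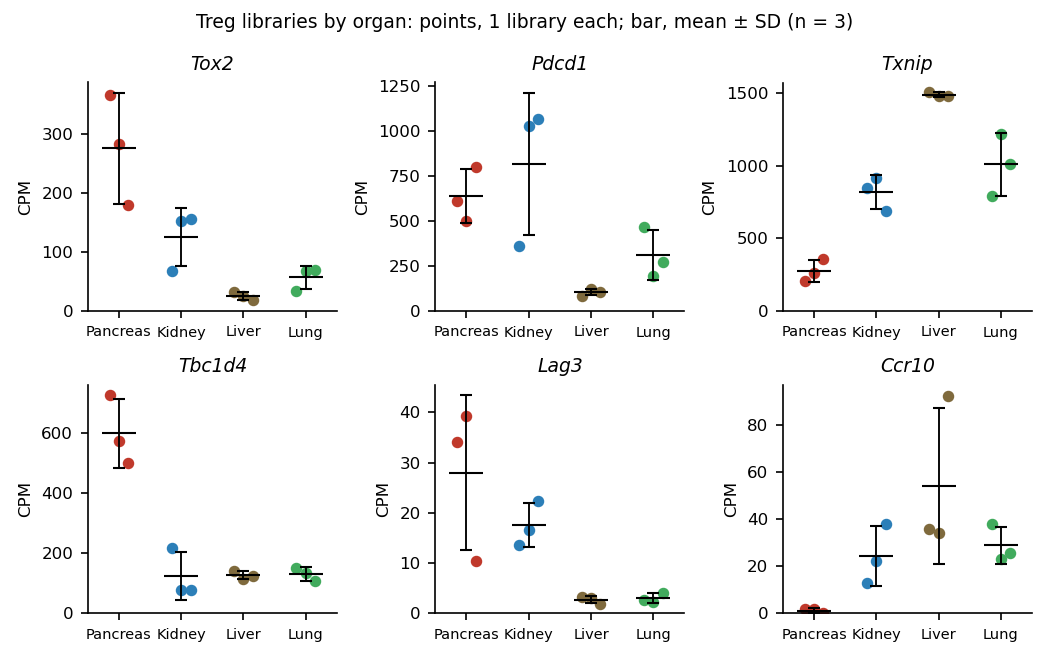
CPM of Tox2, Pdcd1, Txnip, Tbc1d4, Lag3 and Ccr10 in the Treg libraries of 4 organs, 1 point per library, with the mean and SD (n = 3) as bars. Pancreas points lie above all others for Tox2 and Tbc1d4 and below all others for Txnip and Ccr10, and kidney overlaps pancreas for Pdcd1 and Lag3.

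Tbc1d4 encodes AS160, a Rab GTPase-activating protein that holds glucose transporter vesicles inside the cell. It had 724, 572 and 498 CPM in pancreas, 216, 76.2 and 78 CPM in kidney, 142, 114 and 125 CPM in liver, and 152, 133 and 106 CPM in lung. The lowest pancreas library was over 2 times the highest of the other organs, kidney replicate 1. The log2 difference was 2.21 ± 0.20 (edgeR adjusted p = 3.54e-08), nearly alike against kidney (2.27), liver (2.21) and lung (2.16), and it was called in all 27 alternatives. The gene lies at chr14:101442360-101609191, minus strand.

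Ccr10, the receptor for skin and mucosal chemokines, went down to 1.69 and 1.73 CPM in pancreas replicates 1 and 5 and had no count in replicate 6. In kidney it had 12.9, 22.4 and 38 CPM, in liver 35.8, 34.1 and 92.5 CPM, and in lung 38, 23.2 and 25.7 CPM, so no library overlapped. The log2 difference was -4.85 ± 0.79 (edgeR adjusted p = 0.000765), called in all 27 alternatives. Ccl20, the ligand of CCR6, was low but present at 8.88, 7.77 and 2.51 CPM in pancreas and at most 1.47 CPM elsewhere (log2 fold change 4.86, edgeR adjusted p = 0.000424). It was chosen for mention after its values were seen, as 1 of 2 genes outside the acinar pattern that were higher against each organ. For Ccl20 the edgeR adjusted p was 0.047 against kidney, 0.0136 against liver and 0.0479 against lung, so 2 of these lay close to the threshold.

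**Figure D4:**
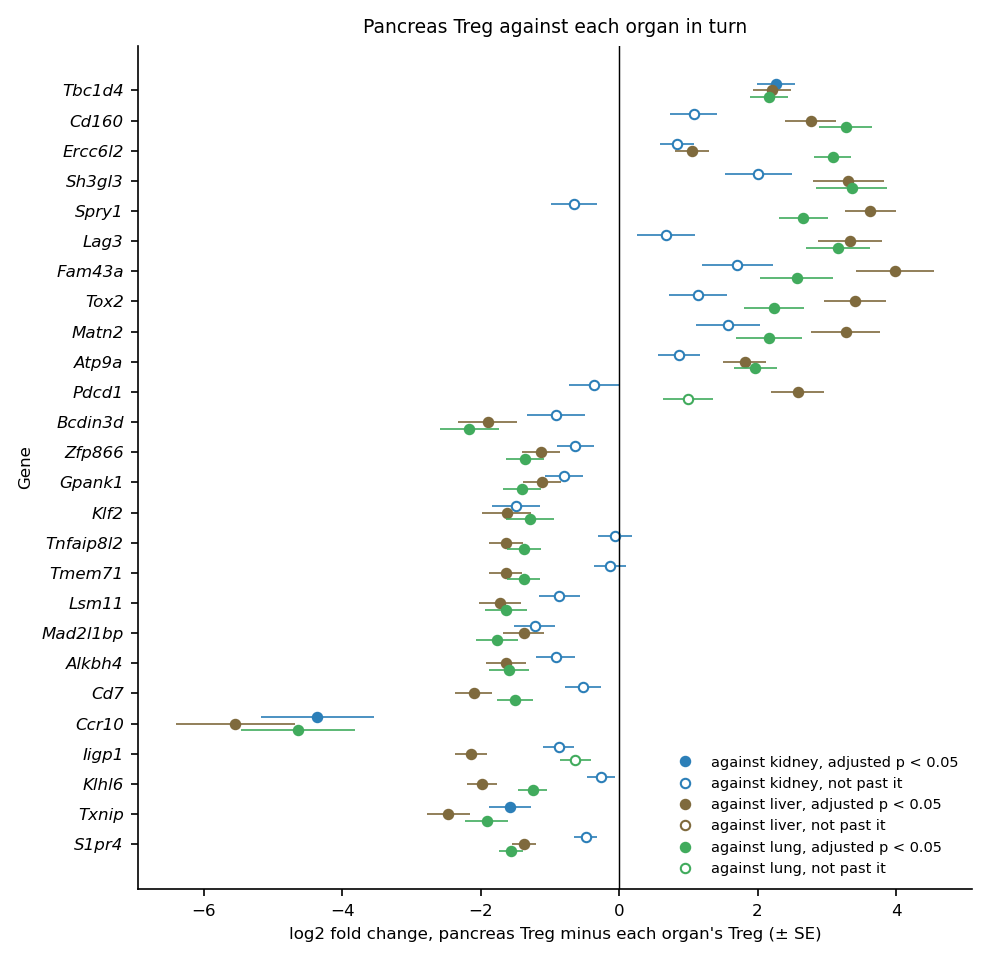
Log2 fold change with SE of pancreas Treg against kidney, liver and lung Treg in turn, with filled points where the edgeR adjusted p was below 0.05. Shown are Pdcd1 and the genes named by rank outside the acinar pattern, except Tph1, which is not drawn. Tbc1d4, Txnip and Ccr10 are filled against all 3 organs, and most other genes only against liver and lung.

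Checkpoint and costimulatory receptor genes, a list that also holds Tox and Tox2, had 7 of 22 members higher and none lower, with a median log2 change of 0.21 beside 0.03 over all genes tested. The counts of this and the following lists stand beside 1.83% higher and 0.609% lower over all genes tested. The lists were written with earlier results of these data known, and some genes stand on several lists, so these counts are descriptions. The 7 were Cd160, Lag3, Tox2, Tox, Cd200, Nt5e and Pdcd1. Cd160, a receptor for HVEM, had 21.9, 17 and 9.05 CPM in pancreas, 6.14 to 9.92 CPM in kidney and 1.02 to 3.12 CPM in liver and lung. Pancreas replicate 6 thus fell under the highest kidney library. Lag3, an inhibitory receptor for MHC class II, had 34.2, 39.3 and 10.5 CPM in pancreas, 13.6, 16.7 and 22.3 CPM in kidney, and at most 4.12 CPM in liver and lung, and replicate 6 lay below all 3 kidney libraries. Cd160 rose by 2.37 ± 0.26 and Lag3 by 2.39 ± 0.32 in log2 (edgeR adjusted p = 1.31e-06 and 3.03e-05), Tox by 0.87 and the adenosine-forming ectoenzyme gene Nt5e by 0.73. Tox was lost without pancreas replicate 1, Nt5e without pancreas replicate 6, and Lag3 within the libraries without Xist (edgeR adjusted p = 0.446). Tigit (0.23), Havcr2 (0.23) and Icos (0.03) did not pass. Against kidney none of the 22 was called and the median was -0.33.

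Follicular T cell genes had 11 of 26 members higher and none lower (median 0.97). With Tox2, Tox, Cd200 and Pdcd1 they were Cxcr5, the receptor that leads cells into B cell follicles, Angptl2, Il21, Cd40lg, Ascl2, Cebpa and Sh2d1a. Cxcr5 had 128, 85.2 and 67.7 CPM in pancreas, 51, 10.6 and 11.5 CPM in kidney, 38.7, 22.8 and 38.9 CPM in liver, and 25.3, 19.1 and 10.3 CPM in lung. All pancreas libraries were above all others, and the log2 difference was 1.90 ± 0.36 (edgeR adjusted p = 0.00288), lost within the libraries without Xist (edgeR adjusted p = 0.443). Angptl2, a secreted glycoprotein, had 195, 155 and 56 CPM against 39.6 to 56.9 CPM in kidney. Il21, the B cell helper cytokine, rested on single libraries, with 24.2, 4.88 and 0.0696 CPM in pancreas. Bcl6, the factor that directs follicular cells, had a log2 change of 0.92 and did not pass (edgeR adjusted p = 0.51). B cell list genes took 0.056% to 0.124% of counts in pancreas, 0.0709% to 0.0755% in kidney, 0.0905% to 0.1% in liver and 0.0376% to 0.0795% in lung. Their part in the result was not tested. Without pancreas replicate 1 the list count was 5, within the libraries without Xist 3, and against kidney none.

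The AP-1 and early response list, genes switched on within minutes of a stimulus, had 8 of 24 members higher and none lower (median 1.41), namely Egr1, Egr2, Egr3, Fos, Dusp1, Zfp36, Myc and Nr4a1. Fos had 1221, 1855 and 406 CPM in pancreas, 818, 1193 and 1356 CPM in kidney, 15.8, 21.3 and 19.5 CPM in liver, and 316, 19.1 and 30.2 CPM in lung. Kidney thus overlapped with pancreas, and liver and 2 lung libraries were far lower. Nr4a1, an orphan receptor induced by antigen receptor signals, was at 2523, 3178 and 831 CPM in pancreas and up to 5547 CPM in kidney. Against kidney the list's median was -0.67, with no call either way. The count rested on few libraries: without pancreas replicate 5 it was 0, without lung replicate 1 it was 15, and 1 gene was lower without kidney replicate 1. The share of counts on the list ran from 1.01% to 2.32% in pancreas and from 1.6% to 2.72% in kidney. In liver it was 0.311% to 0.339% and in lung 0.372% to 1.26%.

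Genes that feed back on antigen receptor signals had 7 of 26 higher (median 0.90), with Spry1 and Nfatc1 beside the EGR genes, Nr4a1 and Tnfrsf9. Spry1, an inhibitor of RAS signalling, had 269, 346 and 128 CPM in pancreas, 192, 571 and 404 CPM in kidney, and 15.7 to 49.8 CPM in liver and lung. Nfatc1, a calcium-driven factor, had 1105, 1064 and 613 CPM in pancreas against 507 to 841 CPM in kidney and 297 to 413 CPM in liver and lung. The components of the receptor and its kinases gave no call in 26 tested (median 0.09), with Zap70 at 0.49 (edgeR adjusted p = 0.0705). Of these, 2 were higher without pancreas replicate 6 and 1 without lung replicate 1 or 6. This feedback count was 2 without pancreas replicate 5, 4 without pancreas replicate 1 and 11 without lung replicate 1.

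Among genes of resting and recirculating T cells, 5 of 26 were lower and none higher (median -0.80). They were S1pr4, Klf2, Klf3, Ms4a4b and Ms4a6b. Klf2, which maintains quiescence and the exit receptor S1PR1, had 434, 648 and 837 CPM in pancreas, 2314, 1703 and 1348 CPM in kidney, 1783, 1900 and 2106 CPM in liver, and 2734, 901 and 936 CPM in lung. No pancreas library reached the lowest of the others, and the log2 difference was -1.47 ± 0.31 (edgeR adjusted p = 0.00846). The Klf2 call was lost in 6 of 27 alternatives, among them the fits without pancreas replicate 1, with Xist status as a factor and within either set of libraries by Xist. S1pr4 had 62.5, 64.6 and 71 CPM in pancreas and 69.9 to 201 CPM elsewhere, with kidney replicate 1 at 69.9 CPM inside the pancreas range (-1.14 ± 0.15, edgeR adjusted p = 2.42e-05). The exit receptor gene S1pr1 (-0.94) and the interleukin 7 receptor gene Il7r (-0.86) did not pass, nor did Ccr7 (-0.46). Without pancreas replicate 1 the list count was 2 and without pancreas replicate 6 it was 3.

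Among 21 chemokine receptor genes, Cxcr5, Ccr8 and Ccr6 were higher and Ccr10 lower. Ccr6, the receptor of CCL20, had 89.5, 98.3 and 97.2 CPM in pancreas, 28.7 to 34.5 CPM in kidney, 39.4 to 49.4 CPM in liver, and 37.1, 112 and 80.6 CPM in lung, so lung replicate 5 was above all of pancreas. Its call (0.97, edgeR adjusted p = 0.0444) was lost in 16 of 27 alternatives, those without any 1 pancreas, kidney or liver library among them. Of 22 integrin and adhesion genes, Itgb7 (-0.79), a chain of the gut-homing integrin, and Itgb3 (-1.12) were lower, and Itgb8 (1.13), whose integrin frees active TGF-beta, was higher. Without pancreas replicate 1 or pancreas replicate 6 none of these 3 was called. The lower count was 1 without pancreas replicate 5, kidney replicate 3 or 5, or any liver library, and Itgb8 was lost without kidney replicate 3, lung replicate 5 or any liver library. Without lung replicate 1 the higher count was 2.

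The Treg signature gave 3 of 24 higher (Nt5e, Tnfrsf9 and Itgb8) and the tissue Treg list 6 of 36 (Ccr8, Il10, Penk, Bhlhe40, Tnfrsf9 and Ahr), none lower. Tnfrsf9 and Penk were lost without pancreas replicate 6. Without pancreas replicate 6 the signature count was 0, and without lung replicate 1 it was 6. Il2ra (0.06), Ikzf2 (-0.14) and Ctla4 (0.90, edgeR adjusted p = 0.215) did not pass. Ccr8, a receptor of skin and tissue Treg, had 447, 389 and 484 CPM in pancreas, 301, 883 and 1102 CPM in kidney, 17 to 29.7 CPM in liver, and 121 to 310 CPM in lung. Pancreas and kidney overlapped, and both stood far above liver. Il10 had 53.9, 78.6 and 30.3 CPM in pancreas, 15.3, 95.1 and 110 CPM in kidney, and at most 13.7 CPM in liver and lung (log2 fold change 2.56, edgeR adjusted p = 0.00489), lost without pancreas replicate 5. The repair factor gene Areg, with 1.73, did not pass (edgeR adjusted p = 0.201), and the markers Il1rl1 (-0.21), Klrg1 (-0.52) and Gata3 (0.28) did not either.

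Cytokine and repair genes had 7 of 31 higher (median 1.22): Il21, Ccl3, Tnfsf11, Il10, Penk, Tnf and Lif. Tnfsf11, the cytokine RANKL, had 156, 156 and 67.2 CPM in pancreas, 71.3, 123 and 120 CPM in kidney, and 21.6 to 73.8 CPM in liver and lung. Without pancreas replicate 1 or 5 Tnfsf11 was not called. The list count was 4 without pancreas replicate 1 and 2 without pancreas replicate 5, and 1 gene was lower without lung replicate 1. Cytokine receptors had 3 of 32 higher and the TNF receptor superfamily 2 of 20, a count that was 1 without any 1 of the pancreas libraries. Without lung replicate 6, 2 cytokine receptors were lower. Among the higher receptor genes, Il1r2, the decoy for interleukin 1, was at 125, 51 and 80.5 CPM in pancreas and 31.1 to 98.5 CPM in kidney. Tnfrsf8 (CD30), also higher, was at 44.3, 36.8 and 27.4 CPM in pancreas against at most 20.9 CPM elsewhere. No library of the other organs reached pancreas for Tnfrsf8, whose call was lost in 8 of 27 alternatives, without pancreas replicate 1 or 5 among them. For Il1r2 kidney overlapped, and the call was lost without pancreas replicate 1.

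Cytotoxic genes Gzmb and Prf1 were lower, 2 of 20 tested. Gzmb had 4.46, 5.37 and 12.3 CPM in pancreas and 9.77 to 94.8 CPM elsewhere, with kidney replicate 1 the lowest of these (-2.64 ± 0.61, edgeR adjusted p = 0.0185). Without pancreas replicate 1 or 5 neither was called, and without liver replicate 3 only 1 was. Of 36 interferon-stimulated genes the GTPases Iigp1 (-1.21) and Igtp (-0.87) were lower, and 4 genes were lower without lung replicate 1. Iigp1 was at 45 to 55.5 CPM in pancreas, 59.5 to 95.4 CPM in lung and 191 to 229 CPM in liver. Both the Iigp1 and the Igtp call were lost with liver left out of the reference, and within the libraries with Xist.

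On the glucose list, 2 of 27 genes were lower, Txnip and the glycolytic Eno1 (-0.41), and Myc (0.76) was higher, with a median of -0.03. Myc was lost without pancreas replicate 5 or 6, and the higher count was 2 without lung replicate 1. The glucose transporter genes Slc2a1 (-0.46) and Slc2a3 (-0.27) and the lactate dehydrogenase gene Ldha (-0.37) did not pass, and Arrdc4, the relative of Txnip, was at -0.69 (edgeR adjusted p = 0.176). The lower count was 1 in 10 of the 12 fits that leave out a single library, all but those without lung replicate 1, where it was 3, or lung replicate 6. Ribosomal protein genes were all at negative values (median -0.65) with none of 30 called, although 10 were lower without pancreas replicate 6 and 25 in limma-voom, and the 30 nuclear respiratory chain genes had a median of -0.32 with none called. Of 31 cell cycle genes, Mcm6 of the replicative helicase was higher (0.54), and the median was 0.44. The count was 0 without liver replicate 1 or 4 or pancreas replicate 1 or 5, and 2 without lung replicate 1. None of 7 respiratory chain genes of the mitochondrial genome was called (median -0.64), and 1 was lower without kidney replicate 5 or pancreas replicate 6.

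Of 18 heat shock genes tested, Hspa1a alone was called. It was at 2.08, 3.45 and 1314 CPM in pancreas and 269, 2154 and 1706 CPM in kidney, and its call (4.92, edgeR adjusted p = 0.0204) turned to -2.37 without pancreas replicate 6 (edgeR adjusted p = 0.402). The call was also lost without lung replicate 5 or 6 or liver replicate 1 or 4, and the list had 2 higher without lung replicate 1 and 1 lower without pancreas replicate 6. Of 28 unfolded protein and amino acid stress genes, Asns (2.27) and Sel1l (0.74) were higher. Asns, asparagine synthetase, had 11, 15.3 and 69.5 CPM in pancreas, again with replicate 6 high, as for the acinar genes. That count was 0 without pancreas replicate 6 or liver replicate 1, 5 without lung replicate 1, and 1 without any other single library except lung replicate 5.

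Further genes ranked by p, outside the acinar pattern, had no place on the lists, and their cell of origin was not tested. Ercc6l2, a DNA repair helicase gene, had 53.5, 55.8 and 47.3 CPM in pancreas, 27.1 to 31.8 CPM in kidney, 15.6 to 33.3 CPM in liver and 5.31 to 6.62 CPM in lung. Sh3gl3, of the endophilin family, had 38.2, 56.3 and 44.3 CPM and at most 20.4 CPM elsewhere (2.89 ± 0.35, edgeR adjusted p = 6.57e-06), and both genes were called in all 27 alternatives. Fam43a (118, 101 and 45.4 CPM in pancreas), Matn2, a matrix protein gene (32.8, 57.5 and 19.1 CPM), and Atp9a, a lipid flippase gene (122, 113 and 101 CPM), were also higher, and Tph1, the first enzyme of serotonin synthesis, was at 1.42, 5.33 and 2.09 CPM and at most 0.0784 CPM elsewhere. Among the lower genes, Cd7 had 15.4, 13.4 and 12.2 CPM in pancreas and 15.9 to 67.3 CPM elsewhere, and Klhl6, an adaptor of ubiquitin ligases, 143 to 199 CPM against 142 to 657 CPM. Alkbh4, Mad2l1bp, Lsm11, Tmem71, Tnfaip8l2, Gpank1, Zfp866 and Bcdin3d completed the 15, with log2 changes of -1.66 (Bcdin3d) to -1.02 (Tnfaip8l2). Of these, Tnfaip8l2, Gpank1, Zfp866 and Bcdin3d were each lost without 1 or more of the pancreas libraries.

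**Figure D5:**
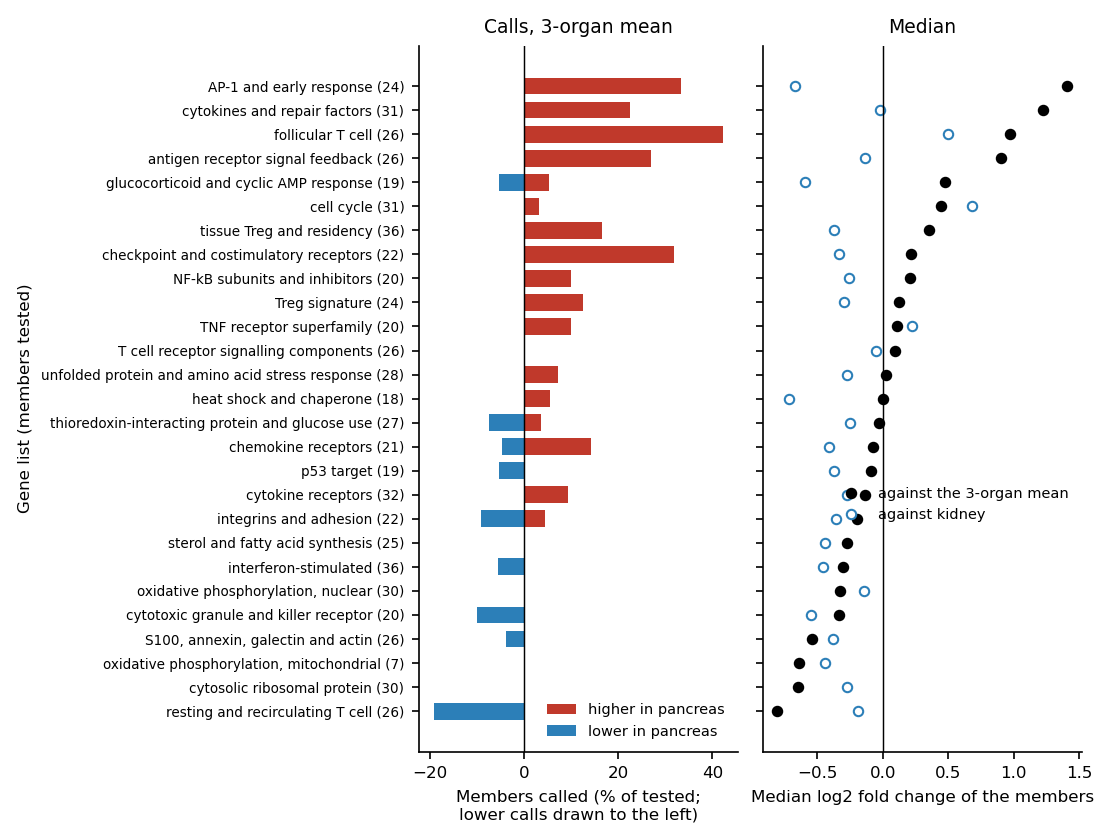
For 27 T cell gene lists, the left panel gives the percent of tested members called higher (right of 0) and lower (left of 0) against the mean of the 3 organs, and the right panel the median log2 fold change against that mean and against kidney. The early response, cytokine, follicular and antigen feedback lists have the highest medians against the mean, and the early response list is at -0.67 against kidney.

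On the other lists, Nfkbid and Nfkbiz, inhibitor proteins of the NF-kB pathway, were higher (2 of 20), with Nfkbid at 526, 536 and 147 CPM in pancreas and 203, 976 and 990 CPM in kidney. The list count was 0 without pancreas replicate 1 or 5, 1 without kidney replicate 3, lung replicate 6 or any liver library, and 4 without lung replicate 1. On the glucocorticoid and cyclic AMP list of 19, Dusp1, a phosphatase of MAP kinases, was higher (2.30), lost without pancreas replicate 5 and 1 of 6 without lung replicate 1. Tsc22d3, the glucocorticoid-induced GILZ, was lower (-1.43, edgeR adjusted p = 0.0246) at 335, 470 and 443 CPM in pancreas against 643 to 1580 CPM elsewhere, and it was lost on leaving out any 1 of the pancreas libraries. Emp3 (-0.96) was the only gene lower of 26 on the S100, annexin, galectin and actin list, all of which had negative values, and the count was 0 without pancreas replicate 1 or 6, 2 without liver replicate 3, 4 without kidney replicate 1 and 6 without lung replicate 1. Sesn1 (-0.74) was the lower gene of 19 p53 targets and was lost without any 1 of the pancreas, kidney or liver libraries, and 2 p53 targets were higher without lung replicate 1. No gene of 25 in sterol and fatty acid synthesis was called, and 1 was lower without kidney replicate 1.

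Placed among all 10 sources of Treg, pancreas was not alone at the ends. Tox2 was highest in LPL Treg (465 ± 65.1 CPM, SD, n = 3), followed by pancreas (275 ± 93.7 CPM), IEL (269 ± 46.2 CPM) and PP (261 ± 43.9 CPM), and the last 3 do not differ beyond their spread. Pdcd1 was highest in kidney (817 ± 395 CPM) and LPL (814 ± 57.2 CPM), then pancreas (636 ± 150 CPM), neighbours that overlap. Txnip was lowest in pancreas (276 ± 74.3 CPM) and LPL (293 ± 53.2 CPM), which overlap, and highest in blood (2053 ± 686 CPM). Tbc1d4 was highest in pancreas (598 ± 115 CPM), followed by PP (492 ± 46.3 CPM) and LN (432 ± 60.8 CPM), again with touching spreads. Ccr10 was lower in IEL (0.023 ± 0.02 CPM) and in PP, where it had no count, than in pancreas (1.14 ± 0.987 CPM). Ccl20 was higher in LPL (87.8 ± 10.1 CPM), IEL (62.3 ± 33.9 CPM) and PP (18.8 ± 10.2 CPM) than in pancreas (6.39 ± 3.41 CPM). These orders are descriptions with no test.

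Over the 12 libraries, the genes whose log2 levels ran most like Tox2 were 2310015A10Rik (Pearson r = 0.945), Tnfsf11 (0.941) and Egr2 (0.939). For Pdcd1 they were Phlda1 (0.974), Slc38a1 (0.971) and Bhlhe40 (0.97). For Txnip they were Tent5c (0.928), Peli1 (0.925) and Supt4a (0.924). The 12 points share organs and the libraries that stand apart.

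The single Tconv libraries of the same organs, read side by side, had Txnip at 674 CPM in pancreas, 1075 CPM in kidney, 1416 CPM in liver and 1635 CPM in lung. Tbc1d4 was at 242 CPM in pancreas Tconv and 112, 83 and 88.8 CPM in kidney, liver and lung Tconv. Both had pancreas at the same end as in Treg. Tox2 was at 59.6, 33.2, 10.5 and 32.9 CPM in the same order, and Pdcd1 at 124, 341, 50.4 and 51.2 CPM, where kidney led. Ccr10 had 1.51 CPM in pancreas Tconv and 3.13 to 31.7 CPM in the others.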

How the data were processed

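Gene counts of 40 libraries were used as the authors deposited them. Per the labels' protocols they come from QuantSeq 3′ mRNA libraries, and per the submitters' processing notes from FastQC, Trim Galore, STAR on mm10 and featureCounts. Versions, the annotation release and use of strand are not given in the sources used here, so reads of a gene and of one antisense to it may be mixed. 3′ counts are not divided by length.

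Of 55421 genes, 17909 passed filterByExpr and were fitted with edgeR 4.0.16 in R 4.3.3: TMM scaling, trended dispersion, robust quasi-likelihood F test, 30 Treg libraries of 10 sources with 1 mean per source (20 residual degrees of freedom). The contrast was pancreas minus the unweighted mean of kidney, liver and lung, and each organ in turn, with Benjamini-Hochberg adjustment over all genes tested and a call at an adjusted p below 0.05. The fit was tested on simulated data, where it missed most of the changes of 1 or 2 in log2. A gene that was not called may therefore still differ. CPM is the count divided by the library total times its TMM factor. The floor for genes without a count is 3 counts over the libraries compared, the limit at a confidence level of 95%, and covers counting error only.

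Members, gene lists and the rule for named genes were chosen with earlier results of these data known. The rule took Tox2, Pdcd1 and Txnip, the 15 higher and 15 lower genes of smallest p with at least a 2-fold change (predicted genes and marker genes of other cells left out), up to 4 members of each T cell list (8 of 4 lists) and 6 of each list of other cells. Other list members named were chosen after their values were seen. The 27 T cell lists and 15 lists of other cells got no test of their own. Alternatives were DESeq2 1.42.0, limma 3.58.1, other scalings, filters and references, and libraries left out. Those on Xist were added after seeing the data.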

Additional observations from a re-analysis of the deposited data

Results flagged for a closer look

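The pancreas Tconv library, which enters no comparison, held acinar transcripts at 1.14% of its counts, above the Tconv libraries of kidney (0.00724%), liver (0.00286%) and lung (0.00447%). In that library Pnlip stood at 1547 CPM and Cela1 at 1331 CPM. It is a single library, and its level was below those of the 3 pancreas Treg libraries (3.12% to 14.4%).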

How the results depend on the processing

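Higher and lower counts in the main contrast (327 and 109), with those against each of the 3 organs (34 and 2), were as follows. With only the 12 libraries fitted they were 102 and 10, and 20 and 1. The Wald test of DESeq2 gave 427 and 317, and 44 and 17, and DESeq2 size factors 332 and 104, and 34 and 2. Limma-voom with quality weights gave 1486 and 760, and 138 and 35, and no filter on low counts 312 and 76, and 27 and 1. With markers of other cells removed they were 291 and 86, and 5 and 1. The reference without kidney gave 573 and 330, without liver 145 and 33, and without lung 151 and 51. Without kidney replicate 1 and lung replicate 1 together they were 709 and 281, and 49 and 13, and without lung replicates 5 and 6 together 330 and 150, and 27 and 6. Xist status as a factor gave 568 and 400, and 39 and 9. Within libraries with Xist, pancreas against lung alone, they were 1333 and 785, and within those without it 102 and 44. Leaving out 1 library at a time they ranged from 157 to 614 and 21 to 208, and from 17 to 38 and 0 to 8. The cause of these shifts was not tested.

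Replicate numbers did not pair the libraries: over 11 pairs of the same number, correlations of deviations ran from -0.132 to 0.188 with 2 over 0.1, and 4 of 11 libraries correlated best with their own number. With the replicate number as a block the counts were 331 and 100, and 25 and 1.

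Of 218 named genes, 93 were called, 12 of these in all 27 alternatives and 7 more in each alternative that tested them. The sign changed in some alternative for 59 of the 218, of which 4 were called, and for 5 genes either the main value or the one of opposite sign was called. Hspa1a went to -1.29 in limma-voom, -0.44 with the replicate block and -2.37 to 5.48 with 1 library left out. Within libraries with Xist, Tnfrsf9 went to -0.27, Ccr6 to -0.072, Krt8 to -0.28 and Tcrg-C2 to -2.85. At this depth 3 counts are under 1 CPM in each library, so counting error bears on the lowest genes.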

Other observations

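Of the 38 higher and 7 lower genes against kidney, 3 on no marker list are named here after their values were seen. Klf10, a TGF-beta-induced factor, had 62.3, 67.5 and 37.4 CPM in pancreas and 64.8, 192 and 304 CPM in kidney, and Litaf 66.2, 54.6 and 84.5 CPM in pancreas and 65.6, 258 and 372 CPM in kidney. Stambp, a deubiquitinase gene, had 49.6, 56.3 and 34.8 CPM in pancreas and 22.3 to 24.5 CPM in kidney. The log2 difference from kidney was -1.74 for Klf10, -1.76 for Litaf and 1.0 for Stambp (edgeR adjusted p = 0.00834, 0.0319 and 0.00836). For Klf10 and Litaf kidney replicate 1 lay inside the pancreas range, and for Stambp no kidney library overlapped. Klf10 was also lower against lung (-1.36, edgeR adjusted p = 0.0163).

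The noncoding RNA Gm26917 took 1.37% of counts in pancreas replicate 6 and 0.468% and 0.355% in pancreas replicates 1 and 5. It took 2.12% to 4.67% in liver, 2.23% in kidney replicate 1 and 1.57% in lung replicate 1, and at most 0.862% in the other kidney and lung libraries.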
